A study of Mus musculus with 5 samples.

Results

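Ribosome footprints in undifferentiated mouse embryonic stem cells (mESCs) were described gene by gene from the 3 standard RIBO-seq libraries of a series of 5 libraries. In RIBO-seq, RNase digests RNA that is not covered by a ribosome, and the protected fragments, called footprints, are sequenced and counted per transcript. The members were all 21998 protein-coding genes with a transcript among the 135276 transcripts of the deposited table. Each gene was represented by its transcript with the highest mean level in the 3 libraries.

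The 3 libraries are labelled as biological replicates of 1 group, untreated mESCs, and the study's methods name the line 46C. A legend of the study calls the material of standard RIBO-seq the input. The cells were grown on gelatin in serum (10%) with leukaemia inhibitory factor (LIF, 1000 units/ml) and treated at 80% confluence with cycloheximide, which stops elongating ribosomes. RNase I (1.3 U, 45 min) was added to the lysates, 80S ribosomes were pelleted through a 30% sucrose cushion, and RNA between 25 and 35 nt was taken for 50 bp single-end sequencing. All cells came from 1 line and 1 condition, so that no contrast between groups was made, and the labels do not say whether the replicates were separate cultures. The legend that names the input speaks of 2 independent replicates per method, where the labels list 3 standard libraries, so which of the 3 are independent is not settled and n = 3 counts libraries.

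Mouse ES cells hold a network of transcription factors, centred on Oct4 (gene Pou5f1), Sox2 and Nanog, that maintains self-renewal, and they divide fast, with a short G1 phase. The number of footprints on a transcript reflects both the amount of the mRNA and the number of ribosomes on each mRNA, and these cannot be told apart here, where no RNA counts were used. CPM, the reads on a transcript per 1000000 reads of its library, give the footprints on a whole transcript. Density is the CPM per kb of transcript, or of coding sequence where stated. Orders by CPM say which genes carried the most footprints, and density was used where paralogues were set against each other.

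The start sites of the naive pluripotency factors are shown because the base at position −3, counted from the A of the start codon, is set against footprint density below. A purine (A or G) at −3 is the best known part of the Kozak context, which helps the scanning ribosome to recognise a start codon. The sequences were read 5′ to 3′ from the Gencode M21 transcripts (GRCm38) on the strand of the gene. Capitals mark position −3 and the start codon.

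Klf5: ccgTccATGc
Pou5f1: ttcCccATGg
Utf1: tcaGggATGc
Esrrb: ggaCtgATGg
Sall4: cgcAccATGt
Zfp42: gacAacATGa
Nr0b1: cagGccATGg
Nanog: actGacATGa
Tbx3: gagTggATGa
Sox2: gccCgcATGt
Klf2: cctGccATGg
Tfcp2l1: tcaGccATGc
Klf4: acaTtaATGa
Tcl1: gatGccATGg
Nr5a2: cttGtcATGc
Prdm14: cttGcgATGg

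Of these 16 genes, 10 (62.5%) had a purine at −3. The share was 86.7% of the 11004 detected genes with an annotated start codon and 98.6% of 73 cytosolic ribosomal protein genes. Those without one were Klf5, Pou5f1, Esrrb, Tbx3, Sox2 and Klf4. These are counts over a short list, and no test was made.

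The libraries held 8992773, 9110668 and 6403651 reads on transcripts in replicates 1, 2 and 3, after 43.7, 43.3 and 43.8% of the reads had been removed as duplicates. The transcripts chosen for the protein-coding genes held 28.2, 28.2 and 27.9% of these reads, and the rest lay on other transcripts of the same genes and on other genes. A single read was worth 0.111, 0.109 and 0.158 CPM, and the limit that a count of 0 allows (3 reads) was 0.333, 0.326 and 0.474 CPM. The reads carried no molecular identifiers, so these limits cover counting error only.

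Of the 21998 genes, 12270 (55.8%) reached 1 CPM in at least 1 library and are called detected below. In all 3 libraries 1 CPM was reached by 11078 genes (50.4%). A further 5774 genes had reads but stayed under 1 CPM everywhere, and 3954 genes (18.0%) had no read. The single libraries gave 11537, 11572 and 11844 genes. The threshold split 1192 genes between libraries, and the lowest mean of a gene above it in all 3 was 1.10 CPM, beside 0.975 CPM for the highest mean of a gene that never reached it.

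The footprints were spread over many genes. The median detected gene had 9.83 CPM (quartiles 3.52 and 24.4), 6073 genes had at least 10 CPM and 493 at least 100 CPM. Here and below, protein-coding footprints are the reads on the chosen transcripts, unless all transcripts of a gene are summed. The 100 highest genes held 10.9% ± 0.503 (SD, n = 3) of protein-coding footprints, and the 1000 highest held 45.0% ± 1.07. The share of the 100 highest was 25.3% with duplicates kept and 14.8% with all transcripts of a gene summed. It took 1242 genes to hold 50% and 5962 to hold 90%. The median density of detected genes was 3.37, 3.41 and 3.20 CPM per kb in the 3 libraries.

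The genes that carried the most footprints coded for elongation factors, chaperones, ubiquitin, the cytoskeleton and glycolysis. Eef2 (chr10:81176631-81182498), which moves the ribosome along the mRNA after each peptide bond, had 804, 790.3 and 859 CPM in replicates 1, 2 and 3. Eef1a1 (chr9:78478449-78481724), which delivers aminoacyl-tRNA to the ribosome, had 773, 759 and 893 CPM. Replicate 3 was the highest for both, and the ranges of the 2 genes overlapped in CPM. With all transcripts of a gene summed, Eef1a1 had 3598 and Eef2 1074 CPM. Per kb of its shorter transcript, Eef1a1 (451 ± 41.3 CPM per kb) stood above Eef2 (265 ± 11.7) in every library.

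The chaperones Hsp90ab1, Hspa8 and Hsp90aa1 had 779 ± 64.9, 555 ± 27.4 and 515 ± 30.4 CPM (SD, n = 3). The polyubiquitin gene Ubb had 415 ± 47.7 CPM. The cytoskeleton contributed Actb (630.0 ± 44.8 CPM), Actg1 (399 ± 25.7), Tubb5 (383 ± 16.9) and Tuba1b (379.6 ± 27.3). Glycolysis contributed Pkm (473 ± 34.7 CPM), Eno1 (395 ± 32.4) and the Eno1-like gene Eno1b (402 ± 32.6).

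Also among the 20 highest were Trim28, Rack1, Rpl4, Fn1, Ipo5 and Eif4a1. Trim28 (chr7:13024152-13031035), a corepressor that silences endogenous retroviruses in ES cells, had 627, 613 and 636 CPM and shared none of its 30-nt windows with a transcript of another gene. Summed over its transcripts it had 1574 CPM. The ribosomal proteins Rack1 and Rpl4 had 403 ± 23.6 and 392 ± 29.3 CPM, and the matrix protein fibronectin (Fn1) had 386 ± 22.4. The nuclear import receptor Ipo5 had 362 ± 6.23 and Eif4a1, the RNA helicase of translation initiation, 360.1 ± 15.5 CPM.

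Many of these genes have close copies in the transcriptome. Of the 20 highest genes, 15 shared at least 10% of their 30-nt windows with another gene, against 16.3% of detected genes. Eno1b shared 88.3% of its windows and Eno1 73.3%. The values of such genes are uncertain, since how reads matching several transcripts were assigned is not given in the sources used here. Among genes below 10%, a group named after its values were seen, the 12 highest included Trim28, Rack1, Fn1, Tubb5, Ncl (356 ± 34.9 CPM), Atp5b (354 ± 14.3), Klf5, Mybbp1a (324 ± 3.33), Phc1 (324 ± 4.09), Hnrnpu (322 ± 20.3) and Ddb1 (302 ± 6.57).

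By density per kb of transcript, histones led. Of the 15 densest genes of at least 10 CPM, 11 coded for the histones H3 and H4, which package newly made DNA: Hist1h3h, Hist1h3i, Hist1h4k, Hist1h3g, Hist1h3b, Hist1h3a, Hist1h4b, Hist1h3c, Hist1h4h, Hist1h4f and Hist2h3b. Hist1h3h had 267, 236 and 302 CPM on a transcript of 411 nt, of which 408 are coding, a density of 653 ± 80.4 CPM per kb. The order depends on the length used: Rpl41, not among the 15, had 152 CPM per kb of transcript and 1101 per kb of coding sequence. The other 4 were Eef1a1 and the ribosomal proteins Rpl32 (431 ± 38.1 CPM per kb), Rplp1 (425 ± 39.0) and Rpl8 (372 ± 35.4). Of the 100 densest genes, 96 shared at least 10% of their windows with another gene, and the exceptions included Rack1 (278 CPM per kb) and the linker histone Hist1h1a (211), again named after their values were seen.

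At the other end, the 100 least dense genes of at least 10 CPM lay between 0.0978 and 1.59 CPM per kb, on transcripts with a median length of 9433 nt. The 100 densest had a median length of 625 nt. The lowest density belonged to D10Wsu102e, with 12.05 CPM on an annotated transcript of 123179 nt. Density depends on the length used: the median over detected genes was 3.33 CPM per kb of transcript (mean of the 3 libraries) and 7.18 per kb of coding sequence.

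**Figure D1:**
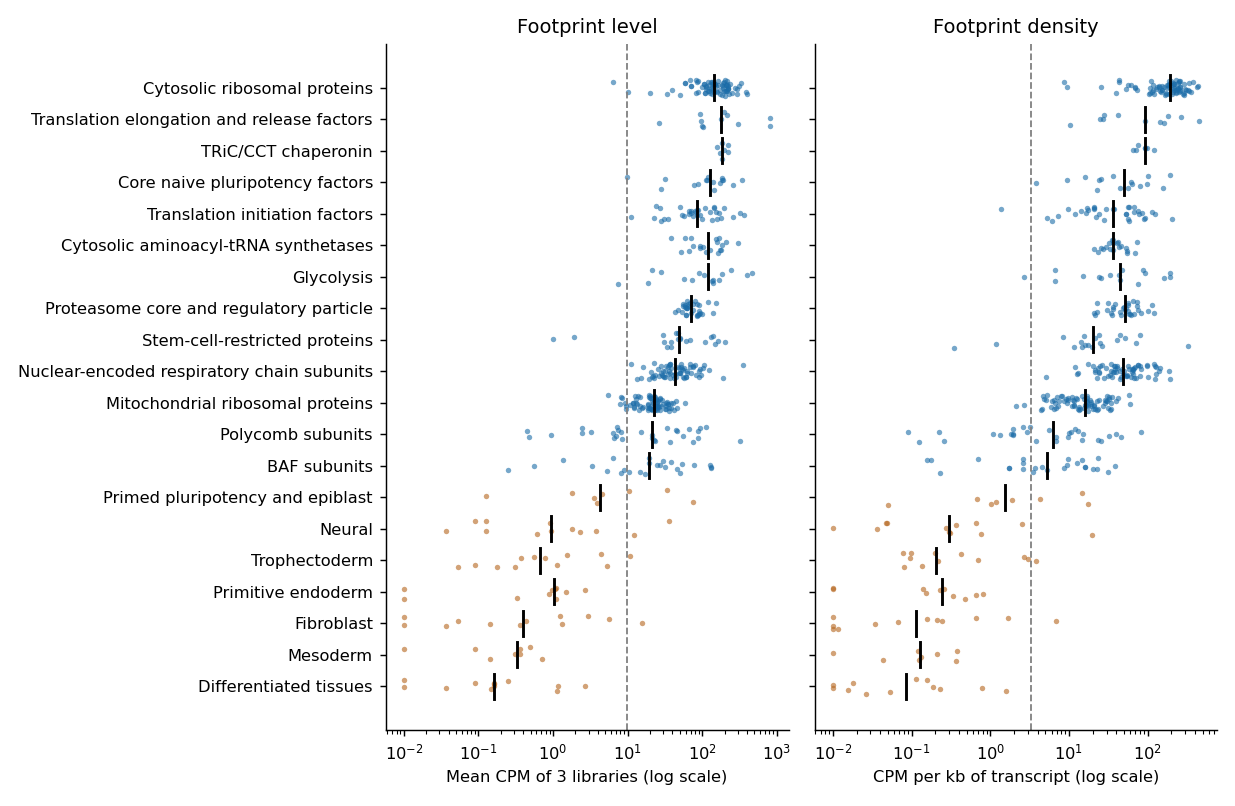
Footprint level (left, mean CPM of 3 libraries) and density (right, CPM per kb of transcript) of the members of 20 gene lists, both on log scales. Each point is a gene, the bar is the median of its list, the dashed line is the median of all detected genes (9.83 CPM and 3.34 CPM per kb), and values under 0.01, genes without reads included, are drawn at 0.01. Ribosomal proteins (median density 190.4) and naive pluripotency factors (50.4) lie to the right of the line and markers of mesoderm (0.128) to the left.

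The sample label was checked with markers. All 10 ES cell markers (Pou5f1, Sox2, Nanog, Klf4, Esrrb, Zfp42, Dppa5a, Lin28a, Tdgf1 and Fgf4) reached 1 CPM in all 3 libraries, with means from 47.2 to 258 CPM and sums of 1379.6, 1345 and 1447 CPM. The 83 markers of other cells, from 8 lists, had a median of 0.706 CPM and sums of 280.0, 285 and 290.1 CPM. Of these 83, 26 reached 1 CPM in all libraries and 7 had no read, where 50.4% and 18.0% of all genes did. In bulk libraries fewer cells of a type and less RNA per cell cannot be told apart, so a low value does not say whether a few cells or all cells gave it.

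The naive pluripotency factors reached 1 CPM in all 3 libraries in 16 of 16 cases, where 50.4% of all genes did. Their median density was 50.4 CPM per kb, beside 3.34 for all detected genes. Klf5 (chr14:99298691-99315036), a Krüppel-like factor that sustains self-renewal, carried the most footprints, with 347, 321 and 353 CPM. Pou5f1 (chr17:35506018-35510772), which encodes Oct4, had 256, 245 and 275 CPM. Per kb of whole transcript it had the highest density of the list, 189.8 ± 11.2 CPM per kb, beside 102 ± 5.06 for Klf5. The transcripts are 1362 nt long for Pou5f1, of which 1056 are coding, and 3352 nt for Klf5, of which 1338 are coding. Per kb of coding sequence Pou5f1 did not stand above Klf5.

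Next per kb of transcript came Utf1, a chromatin-bound coactivator, with 191, 184 and 194 CPM (155 ± 4.15 CPM per kb). Zfp42 (Rex1), a zinc finger factor used as a marker of the naive state, had 174, 161 and 185 CPM (97.9 ± 6.84 per kb). Nr0b1 (Dax1), an orphan nuclear receptor, had 146, 144 and 142 CPM (79.7 ± 1.28 per kb). The CV of the 16 factors, their SD between libraries as a percent of the mean, was at most 7.35% (Prdm14).

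Nanog had 133, 137 and 147 CPM (62.9 ± 3.29 per kb). Sox2 had 115, 116 and 118 CPM (56.6 ± 0.778 per kb). Per kb, Pou5f1 stood above Nanog and Nanog above Sox2 in every library. Summed over all transcripts of the gene, Pou5f1 had 637, Nanog 358 and Sox2, with 1 transcript, 116 CPM. Esrrb, an orphan nuclear receptor, had 186 ± 1.82 CPM, Sall4, a zinc finger factor, 184 ± 3.90, Tbx3, a T-box factor, 118.9 ± 5.85, and Klf2 114 ± 3.53 CPM. Tfcp2l1 had 87.9 ± 1.24 and Klf4 77.3 ± 4.67 CPM. The fewest footprints were on Tcl1, a coactivator of Akt kinases (31.9 ± 1.39 CPM), the nuclear receptor Nr5a2 (27.8 ± 0.443) and Prdm14, which represses differentiation genes (9.81 ± 0.721).

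Of 20 genes listed as stem-cell-restricted proteins, 18 reached 1 CPM in all 3 libraries, where 50.4% of all genes did. The list also holds a cell cycle factor, Mybl2, so not every member is particular to stem cells. Dppa5a, an RNA-binding protein of ES cells, had 200.3, 189.5 and 221 CPM, a density of 329 ± 25.9 CPM per kb. Mybl2 had 163 ± 5.99 and the transposon-derived L1td1 151 ± 5.10 CPM. Lin28a, which blocks maturation of let-7 microRNA, had 55.1, 48.1 and 49.9 CPM (14.6 per kb). Its paralogue Lin28b had 2.33, 2.39 and 0.948 CPM (0.350 per kb), from 21, 22 and 6 reads, and lay below Lin28a in every library. The lowest was Dppa3 (Stella), with 1.11, 0.761 and 1.11 CPM.

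**Figure D2:**
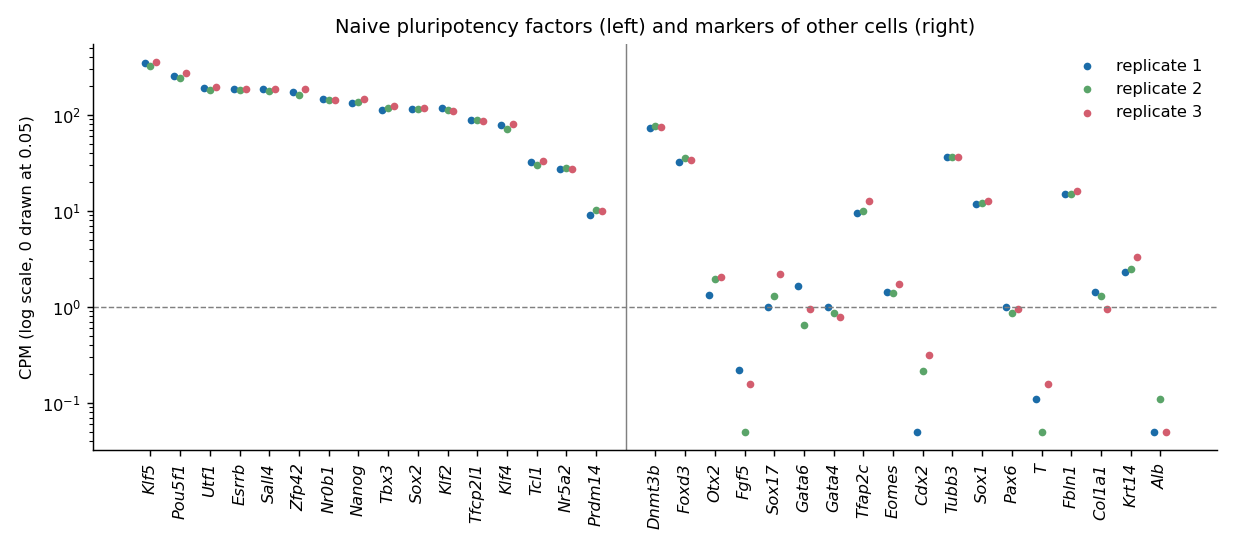
CPM (log scale) of the 16 naive pluripotency factors (left) and a selection of markers of other cells (right) in replicates 1, 2 and 3, with values of 0 drawn at 0.05 and the dashed line at 1 CPM. The factors lie between 8.99 CPM (Prdm14, replicate 1) and 353 CPM (Klf5, replicate 3).

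Markers of the primed epiblast were mixed. Dnmt3b, a de novo DNA methyltransferase, had 72.6, 76.2 and 75.4 CPM, and Foxd3, a forkhead factor used in both naive and primed cells, 32.5, 35.6 and 34.3 CPM. Zic2 had 10.3 ± 1.98 CPM, Pou3f1 4.55 ± 0.119, Sox3 3.86 ± 0.335, Lef1 3.53 ± 0.291 and Otx2 1.78 ± 0.392. Fgf5, a defining marker of the primed state, had 2, 0 and 1 reads, which is within the limit that a count of 0 allows.

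Of 10 primitive endoderm markers, only Sox7 (2.68 ± 0.583 CPM) reached 1 CPM in all 3 libraries, where 50.4% of all genes did. Sox17 had 1.51 ± 0.631 CPM, Amn 1.11 ± 0.327, Gata6 1.09 ± 0.520, Dab2 1.08 ± 0.188, Pdgfra 0.967 ± 0.577, Gata4 0.886 ± 0.105 and Foxa2 0.326 ± 0.223. Afp and Ttr had no read. Of 12 trophectoderm markers, Tfap2c (10.8 ± 1.76 CPM), Krt8 (5.32 ± 0.775), Krt18 (4.35 ± 0.894) and Eomes (1.53 ± 0.180) reached 1 CPM in all libraries. Ascl2 had 1.13 ± 0.706 CPM, Gata2 0.773 ± 0.432, Krt7 0.556 ± 0.202, Hand1 0.378 ± 0.0835 and Gata3 0.305 ± 0.184. Cdx2, a defining factor of trophectoderm, had 0, 2 and 2 reads, and Plac1 and Elf5 had 0, 1 and 1 and 0, 0 and 1.

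Among 12 neural markers, the neuronal tubulin Tubb3 had 36.2, 36.2 and 36.2 CPM. Sox1, a factor of the early neural plate whose locus carries a reporter in 46C cells, had 11.9, 12.2 and 12.8 CPM, and whether the reporter had a part in this value was not tested. Map2 had 3.75 ± 0.652 CPM, Nes 2.27 ± 0.290 and Neurod1 1.77 ± 0.291. Pax6, Rbfox3, Neurog2, Syp, Gfap and Dcx had means from 0.0370 to 0.939 CPM.

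None of 8 mesoderm markers reached 1 CPM in any library, where 55.8% of all genes did so in at least 1. Mesp2 had 0.706 ± 0.255 CPM, Mesp1, Tbx6, Evx1, Mixl1, Fgf8 and T (Brachyury) 0.0896 to 0.484, and Msgn1 no read. Of 12 fibroblast genes, the matrix protein gene Fbln1 had 15.4 ± 0.618 CPM, Col5a1 5.59 ± 0.940 and Thy1 2.92 ± 0.600. Pdgfrb, Fap, Col1a2, Col6a1 and Postn lay between 0.0370 and 1.34 CPM, and Lum and Dcn had no read. Of the defining fibroblast collagens, Col1a1 had 1.44, 1.30 and 0.948 CPM and Col3a1 0, 0 and 1 reads.

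The 2-cell-like genes Zscan4c, Zscan4f and Zscan4d had 6.14 ± 0.903, 6.14 ± 1.10 and 5.00 ± 1.04 CPM but shared 91.9%, 97.7% and 66.0% of their windows with other genes, so the values are not independent. Zscan4a and Eif1ad8 were not matched by symbol. Tcstv3 had 1.65 ± 0.594 and Tcstv1 1.64 ± 0.366 CPM, and Usp17lc, Tdpoz4, Zfp352 and Duxf3 0.126 to 0.796. All 9 genes found shared at least 10% of their windows with other genes. Of 12 genes of differentiated tissues only the keratin Krt14 (2.72 ± 0.528 CPM) reached 1 CPM in all libraries, where 50.4% of all genes did. Myh6 had 1.15 ± 0.333 and Cd3e 1.14 ± 0.179 CPM, Krt5, Hbb-bt, Apoa1, Myh1, Ckm, Ptprc and Alb 0.0362 to 0.253, and Hba-a1 and Ins2 no read.

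The genes that build the ribosome were among the densest. The 80 cytosolic ribosomal protein genes held 4.39%, 4.23% and 4.83% of protein-coding footprints in replicates 1, 2 and 3. Their mean share was 8.70% with duplicates kept and 5.87% with all transcripts of a gene summed. All 80 reached 1 CPM in every library, where 50.4% of all genes did, and their median density was 190.4 CPM per kb against 3.34 over detected genes. Rack1, Rpl4 and Rpl3 (328 CPM) carried the most footprints. The fewest were on Rpl35a (20.0 CPM), Rpl21 (10.0) and Rpl29 (6.32).

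The ribosome holds these proteins in nearly equal numbers, yet their densities ranged from 8.62 to 431 CPM per kb of transcript. Per kb of coding sequence, the 73 with an annotated one ranged from 13.2 (Rpl29) to 1101 (Rpl41). Of the 80 genes, 76 shared at least 10% of their windows with other genes. For Rpl35a, Rpl21 and Rpl29, 57.0%, 39.4% and 56.8% of the windows occurred in more than 10 transcripts. The aligner's default settings discard reads that map to more than 10 places, and the part of this filter in the low values was not tested.

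Ribosomal protein mRNAs are known for a 5′ terminal oligopyrimidine (TOP) tract, a C followed by pyrimidines, through which the mTOR pathway controls their translation. An annotated 5′ end of C followed by at least 4 pyrimidines was found on the sense strand in 9 of 73 of these transcripts (12.3%), against 2.34% of detected genes. Annotated 5′ ends need not be the base where transcription starts, so a missing match says only that these letters are not at the annotated end. Of these 9, the starts of the 3 with the most footprints and of Rps24, which has a long tract, are shown from Gencode M21 with the tract in capitals.

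Rack1: CTTTTTCTCCacagggtcgt
Rpl4: CTTTTCCTgtgggagcagcc
Rpl32: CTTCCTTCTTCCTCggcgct
Rps24: CTCTTTTCCTCCTCTCCagc

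All listed translation factors reached 1 CPM in every library, where 50.4% of all genes did. The 35 initiation factors had a median density of 36.4 CPM per kb, and the most footprints were on Eif4a1 (360.1 CPM), Pabpc1 (318 CPM) and Eif3c (261 CPM), and the fewest on Eif4g3 (11.2 CPM), a paralogue of the scaffold Eif4g1. Per kb, Eif4g1 (36.4) stood above Eif4g3 (1.38) in every library. The 11 elongation and release factors had a median density of 93.3 CPM per kb, with Eef1g (301 CPM), a subunit of the exchange factor for Eef1a1, behind the 2 factors above and Eef1e1 (26.4 CPM) last. Of the 20 cytosolic aminoacyl-tRNA synthetases, which charge tRNAs, the most footprints were on Aars (307 CPM), Eprs (207 CPM) and Nars (183 CPM), and the fewest on Farsa (37.98 CPM).

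Ribosome assembly factors and mitochondrial ribosomal proteins were less dense. The 24 nucleolar factors had a median density of 26.6 CPM per kb, and the most footprints were on Ncl (356 CPM), Mybbp1a (324 CPM) and Npm1 (290.3 CPM), and the fewest on Nop10 (25.6 CPM). The 78 mitochondrial ribosomal proteins had 15.8 CPM per kb, with the most footprints on Mrpl2 (59.6 CPM), Mrpl15 (46.6 CPM) and Mrpl4 (44.5 CPM), and the fewest on Mrpl41 (5.49 CPM). All members of both lists reached 1 CPM in every library, where 50.4% of all genes did.

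Subunits of a complex were compared in density per kb of coding sequence, and the ratio of the densest to the least dense subunit differed between complexes. The chaperonin TRiC folds actin and tubulin, and its 7 subunits found here (Cct6a was not matched by symbol) had 94.8 (Cct8) to 137 CPM per coding kb (Cct7), a ratio of 1.45. By footprints, Cct7 (224 CPM), Cct5 (221 CPM) and Cct2 (195 CPM) led that list. Mcm2 to Mcm7, the 6 subunits of the replicative helicase, had 59.0 (Mcm4) to 89.5 (Mcm5), a ratio of 1.52. The ratio was 2.23 for 13 subunits of the 20S proteasome core and 2.10 for 17 of its 19S regulator, and 3.43 for the 3 core subunits of Polycomb complex PRC2. Per kb of whole transcript the ratios were 1.83 for TRiC, 1.69 for the helicase, 5.42 for 14 subunits of the 20S core, 3.14 for the 19S regulator and 4.32 for PRC2.

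All 32 listed proteasome subunits reached 1 CPM in every library, where 50.4% of all genes did. The most footprints were on Psmd2 (153 CPM), Psmd1 (140.2 CPM) and Psmd3 (120.0 CPM), and the fewest on Psmd6 (43.3 CPM). Of its interferon-induced counterparts, Psmb10 had 9.54, 8.70 and 10.1 CPM, Psmb9 0.888, 2.17 and 1.11 CPM and Psmb8 no read. All 15 heat shock chaperones were detected. Hspa8, the constitutive Hsp70, had 232 ± 11.4 CPM per kb and stood above the inducible Hspa1a (1.48 ± 0.0595 per kb) in every library. The 14 chaperones of the endoplasmic reticulum had a median density of 25.7 CPM per kb, with the most footprints on Canx (151 CPM), P4hb (113 CPM) and Pdia3 (107 CPM), and the fewest on Sdf2l1 (12.9 CPM).

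Every member of the metabolic lists reached 1 CPM in all libraries, where 50.4% of all genes did. The 16 glycolysis genes had a median density of 44.3 CPM per kb, with the most footprints on Pkm, Eno1 and Aldoa (240.5 CPM) and the fewest on Aldoc (7.40 CPM). Hk2 (33.4 ± 0.931 CPM per kb) stood above its paralogue Hk1 (6.64 ± 0.253 per kb) in every library. Gapdh, a common housekeeping reference, had only 17.9, 22.9 and 22.9 CPM. Of its windows, 84.2% were shared with other genes and 78.2% occurred in more than 10 transcripts, and with all transcripts of each gene summed it had 116 CPM.

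The 67 nuclear-encoded subunits of the respiratory chain had a median density of 49.1 CPM per kb, with the most footprints on Atp5b (354 CPM), Atp5a1 (188 CPM) and Uqcrc1 (124 CPM), and the fewest on Ndufa5 (11.2 CPM). The 13 proteins encoded by mitochondrial DNA had 54.1 CPM per kb, with the most on mt-Co1 (197 CPM), mt-Co3 (85.0 CPM) and mt-Cytb (65.9 CPM), and the fewest on mt-Nd3 (6.93 CPM). They held 0.230% ± 0.0131 of protein-coding footprints, and 9 of the 13 shared at least 10% of their windows with other genes.

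Of the 16 genes of one-carbon and threonine metabolism, the most footprints were on Shmt2 (164 CPM), Mthfd1 (153 CPM) and Tdh (132 CPM). Tdh is the threonine dehydrogenase on which mouse ES cells depend. The 17 genes of cholesterol synthesis and uptake had a lower median density, 10.5 CPM per kb against 37.9, and its named members were Fdps (63.4 CPM), among the 3 with the most footprints, and Sc5d (5.15 CPM), with the fewest.

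Cell cycle paralogues differed in density. The 19 replication licensing genes were all detected, with the most footprints on Mcm2 (242 CPM), Mcm5 (197 CPM) and Mcm3 (196 CPM), and the fewest on Gins3 (3.73 CPM). Of 19 cyclins, CDKs and inhibitors, 17 were detected, where 55.8% of all genes were. The most footprints were on Ccnb1 (134 CPM), Cdk4 (125 CPM) and Ccnd3 (109.7 CPM), and the fewest on Cdkn2b (0.215 CPM). Per kb, Ccnd3 (55.5 ± 0.503) stood above the other D-type cyclins Ccnd1 (4.99 ± 0.283) and Ccnd2 (0.467 ± 0.0776) in every library. Cyclin E1 (Ccne1, 30.2 ± 0.851 per kb) stood above cyclin E2 (Ccne2, 0.742 ± 0.223), and Cdk4 (60.9 ± 2.22) above Cdk6 (0.839 ± 0.0569), also in every library.

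Chromatin complexes with exchangeable subunits showed the same kind of difference. Of 25 subunits of the BAF nucleosome remodeller, 23 were detected in all libraries, where 50.4% of all genes were. The most footprints were on Smarcc1 (132 CPM), Arid1a (131 CPM) and Smarca4 (129 CPM), and the fewest on Actl6b (0.252 CPM), a neuronal subunit. The ATPase Smarca4 (Brg1) had 131, 125 and 132 CPM (20.3 per kb) and the alternative ATPase Smarca2 (Brm) 1.22, 1.41 and 1.42 CPM (0.229 per kb), on a transcript annotated for nonsense-mediated decay. Smarcc1 (23.0 ± 0.327 CPM per kb) stood above Smarcc2 (2.62 ± 0.0750), and Arid1a (16.0 ± 0.4998) above Arid1b (1.71 ± 0.136), in every library.

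Of 30 Polycomb subunits, 27 were detected in all libraries, where 50.4% of all genes were. The most footprints were on Phc1 (324 CPM), Rbbp4 (112 CPM) and Eed (93.6 CPM), and the fewest on Cbx8 (0.452 CPM). Per kb, Phc1 (83.1 ± 1.05) stood above its paralogues Phc2 (2.91 ± 0.598) and Phc3 (0.222 ± 0.0797) in every library. The methyltransferase Ezh2 (23.6 ± 0.477 CPM per kb) stood above Ezh1 (1.93 ± 0.189). Cbx7 (3.80 ± 0.225 per kb, on a transcript annotated as a retained intron) stood above Cbx2 (1.81 ± 0.179) and Cbx8 (0.126 ± 0.0324) in every library, all of which read the histone mark set by Ezh2. All 9 DNA methylation genes were detected, with the most footprints on Uhrf1 (203 CPM), Dnmt1 (177 CPM) and Dnmt3l (133 CPM), and the fewest on Tet3 (3.51 CPM). The demethylating enzymes Tet1 and Tet2 (5.79 ± 0.385 and 8.47 ± 0.825 CPM per kb) stood above Tet3 (0.322 ± 0.0442) in every library.

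Of the 22 hnRNP genes, whose proteins bind nascent RNA, all were detected, where 55.8% of all genes were. The most footprints were on Hnrnpu (322 CPM), Hnrnpf (308 CPM) and Hnrnpab (199 CPM), and the fewest on Hnrnph3 (9.67 CPM). All 18 actins and tubulins were detected, with the fewest footprints on the smooth muscle actin Actg2 (2.37 CPM). The 67 replication-dependent histone genes were all detected and held 3.05%, 2.74% and 3.46% of protein-coding footprints. The most were on Hist1h3b (284 CPM), Hist1h3d (274 CPM) and Hist1h3h (268 CPM) and the fewest on Hist1h2aa (5.92 CPM). Of the 67, 61 shared at least 10% of their windows with other genes, and the values of these 61 are uncertain.

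Gene families of sensory and barrier tissues were nearly without footprints. Of 1134 olfactory receptor genes, 4 reached 1 CPM in all libraries and 817 had no read, where 50.4% and 18.0% of all genes did. The most footprints were on Olfr77 (125 CPM), Olfr482 (7.71 CPM) and Olfr354 (3.24 CPM). Olfr77 shared only 1.22% of its windows, and 76.7% of its reads had been removed as duplicates. None of 330 vomeronasal receptors, 38 taste receptors and 64 defensins reached 1 CPM in all libraries, and the highest of each were Vmn1r71 (0.723 CPM), Tas1r1 (0.671) and Defb42 (0.214).

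Of 394 Zfp zinc finger genes 282 reached 1 CPM in all libraries (71.6%, against 50.4% of all genes). The most footprints were on Zfp42 (173 CPM), Zfp57 (119.2 CPM) and Zfp568 (77.7 CPM), of which Zfp57 guards imprinted loci. Of 342 solute carriers 166 did (48.5%), a share near that of all genes. The most footprints were on Slc2a3 (251 CPM), Slc25a5 (181 CPM) and Slc3a2 (180.1 CPM), of which Slc2a3 is a glucose transporter.

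By chromosome, 42.9% of 948 genes on the X were detected, against 57.0% of 20777 autosomal genes. The median detected gene had 6.66 CPM on the X and 9.95 on autosomes. On the Y 6 of 183 genes were detected, among them the initiation factor gene Eif2s3y (11.8 ± 0.660 CPM) and the helicase gene Ddx3y (9.02 ± 0.190 CPM).

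Features of the transcript moved with footprint density. From the lowest to the highest quintile of density, each of 2454 detected genes, the median transcript length went from 4141 to 1799.5 nt and the median coding length from 1707 to 999 nt. Across 12270 detected genes, which are not independent replicates, Spearman's rho of density with length was -0.444. Length is the divisor of density, and rho of CPM with length was -0.042. The median GC content of coding sequences was 54.0% in the lowest and 53.7% in the highest quintile.

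The region around the start codon moved with density too. The median annotated 5′ UTR went from 235 to 140 nt. An ATG in the 5′ UTR, which can capture scanning ribosomes, was present in 60.6, 59.8, 54.4, 47.9 and 37.4% of genes from the lowest to the highest quintile and in 60.0% of genes not detected. Over the quintiles the length of the 5′ UTR moved with this share, and its part was not tested. Genes not detected had a median 5′ UTR of 147 nt, near that of the highest quintile. A purine at −3 was present in 85.1, 84.5, 85.3, 86.7 and 91.6% from the lowest to the highest quintile and in 80.3% of genes not detected. The share in the naive pluripotency factors shown above was below that of every quintile, while their median density lay within the highest.

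**Figure D3:**
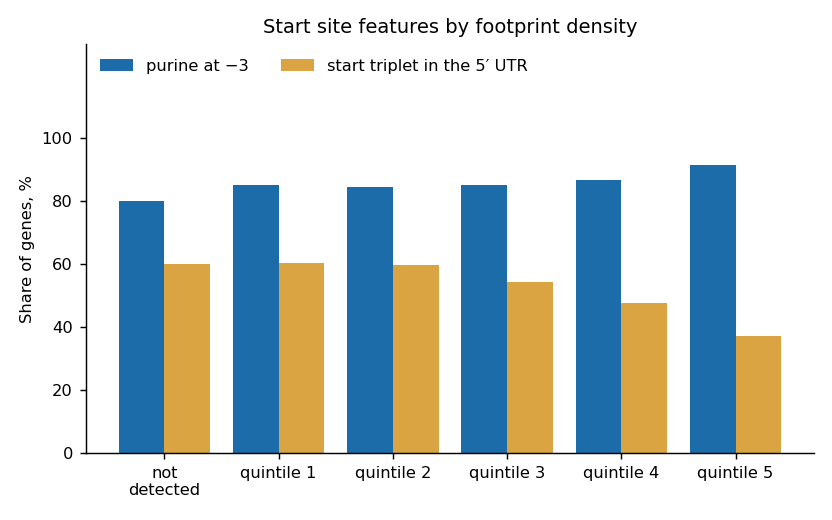
Share of genes (%) with a purine at position −3 (blue) and with a start triplet in the annotated 5′ UTR (yellow), for genes not detected and for quintiles of footprint density of detected genes. From quintile 1 to quintile 5 the first share goes from 85.1% to 91.6% and the second from 60.6% to 37.4%.

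Genes with more annotated transcripts were more often detected. The share was 32.9% for genes with 1 transcript in the table, 51.5% for 2 to 5 transcripts, 79.6% for 6 to 10 and 88.3% for 11 or more. Of 679 genes with over 50% of their windows in more than 10 transcripts 17.2% were detected, against 59.6% of 14860 genes without such windows.

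The spread between the 3 libraries was measured after duplicate removal. Over the 6073 genes of at least 10 CPM, the SD of log2 ratios was 0.16 between replicates 1 and 2, 0.17 between 1 and 3, and 0.19 between 2 and 3. The median CV was 6.56%, where counting error alone would give 5.94%. Squared differences between libraries over counting error, which average 1 where counting error is the only difference, averaged 1.38, 1.61 and 2.29 for the 3 pairs.

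How far the spread exceeded counting error depended on the level. Genes of 1 to 3 CPM had a median CV of 23.3%, near the 22.2% expected from counting. At 10 to 30 CPM the values were 7.88% and 7.21%. For the 34 genes of 300 CPM or more the median CV was 5.83%, over the 1.51% expected. The common biological coefficient of variation of edgeR, which leaves out counting error, was 0.0465 over detected genes, 0.122 with duplicates kept and 0.102 with all transcripts of a gene summed.

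**Figure D4:**
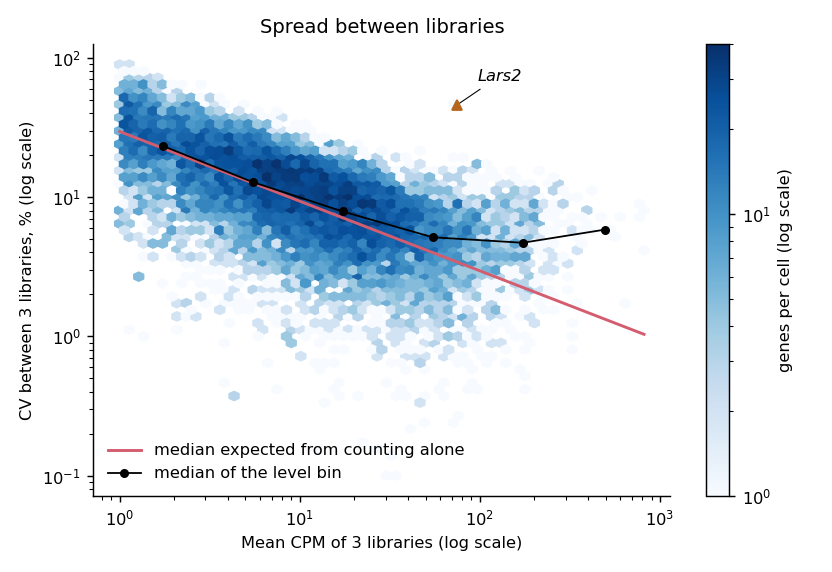
CV between the 3 libraries (%, log scale) against mean level (CPM, log scale) for genes of at least 1 CPM, with the colour giving the number of genes per cell. The red line is the median expected from counting error alone, and the black points are medians of level bins, from 23.3% at 1 to 3 CPM to 5.83% at 300 CPM and above; the triangle is Lars2.

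The median CV after duplicate removal was 2.83% for TRiC, 3.02% for replication licensing genes, 3.10% for naive pluripotency factors, 7.74% for cytosolic ribosomal proteins and 12.7% for replication-dependent histones. With duplicates kept, the medians over the same genes were 3.84%, 4.25%, 4.25%, 5.74% and 9.02%, an alternative chosen after seeing the data.

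Only 1 gene of 6073 (0.0165%) differed by more than 2-fold between libraries. This was Lars2 (chr9:123366927-123462664), the leucyl-tRNA synthetase of mitochondria, with 49.5, 60.9 and 113 CPM in replicates 1, 2 and 3. Without replicate 1, or without replicate 3, no gene passed 2-fold, while 57 did with duplicates kept and 71 with all transcripts of a gene summed. A transcript annotated as ribosomal RNA in the same table, CT010467.1, had 681, 679.6 and 1258 CPM, and its part in the Lars2 value was not tested. Among the next largest ratios of highest to lowest library, from 1.66 to 1.95, were those of Man1b1, Zcchc14, Rfng, Dph5, Itsn2, Kat14, Col4a3bp and Minpp1, with means of 10.0 to 17.2 CPM. In each of these but Dph5 the lowest library was replicate 3. For example, Man1b1, a mannosidase of glycoprotein quality control, had 10.5, 14.8 and 7.58 CPM.

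Replicate 3 stood apart in a way that moved with density. All 100 of the 100 densest genes were highest in replicate 3, where 28.9% of the 6073 genes were, and their median ratio of replicate 3 to the mean of the other 2 was 1.14. Of the 100 least dense genes, 50 were lowest in replicate 3, where 44.1% of all were, with a median ratio of 0.926. Among genes of at least 10 CPM, 65 of 65 histones and 76 of 79 ribosomal proteins were highest in replicate 3. The counts were 9 of 15 for naive pluripotency factors and 22 of 71 for mitochondrial ribosomal proteins.

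Duplicate removal moved with this pattern. The median share of reads removed as duplicates was 74.7, 73.9 and 70.6% in replicates 1, 2 and 3 among the 100 densest genes, and 6.88, 6.01 and 11.1% among the 100 least dense. With duplicates kept, 10 of the same 100 densest genes were highest in replicate 3, and their median ratio was 0.961, beside 0.967 for the 100 least dense. Replicate 3 was also the library with the fewest reads, and with 1 such library its depth and other properties cannot be told apart.

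**Figure D5:**
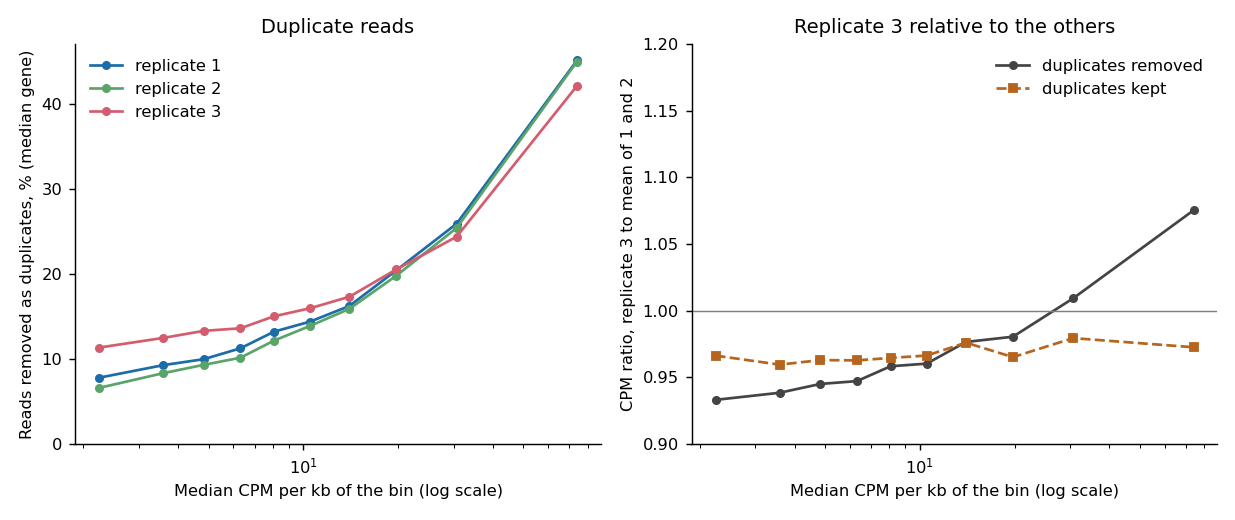
Left, median share of reads removed as duplicates (%) against density (CPM per kb, log scale) in 10 bins of genes, for each library. Right, median ratio of replicate 3 to the mean of replicates 1 and 2 with duplicates removed (black) and kept (brown); the first goes from 0.933 in the lowest bin to 1.08 in the highest, and the second lies between 0.960 and 0.979.

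The distance between dense genes and the rest was larger with duplicates kept. With duplicates kept, Eef1a1 had 3109.7, 3217 and 2802 CPM and Eef2 1239, 1238 and 1138 CPM. Hist1h3h lost 91.2% ± 1.17 of its reads as duplicates, Eef1a1 84.9% ± 2.38 and Pou5f1 59.7% ± 2.14, where the median over detected genes was 11.04%. With duplicates kept, the 100 highest genes held 25.3% of protein-coding footprints and the ribosomal protein genes 8.70%. Without molecular identifiers, amplified copies of a fragment and separate footprints at the same position cannot be told apart.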

How the data were processed

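Ribosome footprints from 3 standard RIBO-seq libraries of mESCs were analysed from 1 deposited table of read counts per transcript. The authors used Gencode M17 transcripts as the reference and STAR as the aligner, without changing its defaults. Inputs to it were adapter-free reads of 20 nt or more, shortened by 1 base at the start with Trimmomatic 0.36 and free of rRNA and tRNA matches. Only sense alignments were counted. The deposited columns hold raw counts, with duplicates removed and with duplicates kept, and the first set was used. The submitters' processing notes name the build GRCm38.p6. How reads matching several transcripts were assigned is not given in the sources used here.

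Counts were divided by library size with TMM factors (edgeR 4.0.16, R 4.3.3) to give CPM, and tables were made with Python 3.11.15, pandas 2.3.3 and numpy 2.4.6. Transcripts were matched by identifier to Gencode M21, in which 135047 of 135276 were found and 98.4% of these had the same length, and 229 were left out. Sharing between genes was measured as the percent of 30-nt windows of a transcript that also occur in a transcript of another gene. Detection was set at 1 CPM, and spread was described over genes of at least 10 CPM. The dispersion estimate was also run on simulated counts, for genes of at least 10 CPM and with a larger spread than the data gave. That run therefore does not test the value given here for all detected genes.

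All samples belong to 1 group, so no test was made and no p-value is given. Values are given per library and as mean ± SD over 3 libraries. The text names the 20 genes with the highest mean CPM, the 15 densest and the 10 with the largest ratio between libraries among genes of at least 10 CPM, for each of 40 gene lists the 3 highest members, the lowest and those without reads, and all naive pluripotency factors and markers of other cells. In families with many members without reads, these are given as counts. Some genes that this rule names are not reported here. The paralogue pairs were named with their values in view. The members and the lists were chosen with earlier results of these data known. The alternatives tried were duplicates kept, library size alone, DESeq2 1.42.0 size factors, other choices of transcript, length and threshold, and leaving out each replicate.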

Additional observations from a re-analysis of the deposited data

How the results depend on the processing

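No paired analysis was possible because there was 1 group and no contrast. Library size alone, DESeq2 size factors and transcripts annotated as protein_coding were tried in turn. The numbers of detected genes were 12327, 12270 and 12141 in at least 1 library and 11129, 11078 and 10958 in all 3. Library size alone and DESeq2 size factors left the footprint shares, ratios of counts within a library, unchanged. Transcripts annotated as protein_coding moved these shares by less than the SD between libraries. Each setting moved the median density by less than the SD between libraries. Each moved the median CV and the common biological coefficient of variation by less than the SD of the values with a replicate left out. The number of detected genes ran from 8684 at a threshold of 5 CPM to 18044 with any count, and from 11983 to 12142 (in at least 1 library) or 11243 to 11318 (in every library used) when a replicate was left out. With duplicates kept, the 100 highest genes held 25.3% and ribosomal proteins 8.70% of footprints, the median density was 2.44 CPM per kb, 57 genes had a range over 2-fold, the common biological coefficient of variation was 0.122, and 13 of the 100 genes then densest were highest in replicate 3 (an alternative chosen after seeing the data). With all transcripts of a gene summed, these values were 14.8%, 5.87%, 6.79 CPM per kb, 71 genes and 0.102, and the median CV was 8.08%. The median density was 5.88 at a threshold of 5 CPM and 7.18 per kb of coding sequence. The median CV was 9.62% over genes of at least 1 CPM and 4.83% over genes of at least 100 CPM, and 527 genes of at least 1 CPM had a range over 2-fold. Leaving out each replicate in turn gave a median density of 3.34 to 3.56 CPM per kb, a median CV of 4.65 to 5.96%, 0 to 1 genes with a range over 2-fold, a common biological coefficient of variation of 0.0322 to 0.0616, a share of the 100 highest genes of 10.6 to 11.1% and of ribosomal proteins of 4.31 to 4.61%. The lone gene over 2-fold, Lars2, was under it without replicate 1 and without replicate 3. The causes of these shifts were not tested. Depth limits genes near 1 CPM, where counting error makes up most of the spread.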
